A study of Homo sapiens with 10 samples.

Results

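The genes described here are 10 direct transcriptional targets of the tumour suppressor p53: CDKN1A, GADD45A, MDM2, PPM1D, SESN1, SESN2, TP53INP1, RRM2B, FDXR and ZMAT3. They were chosen by name, with the apoptosis genes of the pathway left out, and every probe set whose annotation held exactly 1 gene symbol among them was taken. This gave 26 probe sets for 9 of the 10 genes, out of 41097 probe sets with 1 symbol for 19775 genes. FDXR, which encodes a mitochondrial reductase, was not listed under a single symbol and was not analysed here.

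The samples came from cultured human gastric carcinoma cells, and each of 10 single-channel arrays measured their total RNA. The side population had 4 arrays (a to d), the non-side population had 4 (a to d) and the unsorted cells had 2 (a and b). A side population is the dye-poor fraction in flow sorting after staining with Hoechst, a DNA-binding dye that membrane transporters export, and the non-side population is the dye-rich fraction. AGS and MKN 45 are established gastric carcinoma lines. No group carried a genetic change or a drug treatment in the labels, and all were grown in the same medium with serum. The origin label names both lines for all 10 arrays, while the source label names AGS for 8 of them and names no line for side population replicates a and b, so the line behind these 2 arrays is not given. Nothing in the labels says that replicates were separate cultures, so the p-values cover only the scatter among these arrays, part or all of which may be technical.

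The p53 protein is a transcription factor that is stabilised after DNA damage and other stress, and it binds paired copies of a short motif near its target genes. Its targets arrest the cell cycle, repair DNA, supply nucleotides and limit oxidative damage, and several of them feed back on p53 itself. CDKN1A encodes the cell cycle inhibitor p21, MDM2 the ubiquitin ligase that degrades p53, and PPM1D the phosphatase WIP1 that switches the damage response off. Some members, GADD45A and SESN2 among them, are also induced by stress pathways that do not need p53.

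RefSeq promoter windows (GRCh38.p14), which run from 250 bases before to 50 bases after an annotated start, were found for 6 of the 9 measured genes. They were searched for the p53 response-element motif, a 10-base palindrome with a C, A or T, A or T, G core between purines on its 5′ side and pyrimidines on its 3′ side, with up to 1 mismatch outside the core. The motif reads the same on both strands, so 1 strand was searched. MDM2 and SESN1 held matches, and the windows of CDKN1A, PPM1D, SESN2 and ZMAT3 did not. Sequence outside these short windows was not searched, so the lack of a match does not show that a gene lacks a p53 site. GADD45A, RRM2B and TP53INP1 had no window and were not searched. A match is a description of letters: 32.6% of all 35116 windows held at least 1 such match, 6.63% held an exact one and 6.79% held 2 or more. The 2 windows printed here are shown because the inner MDM2 promoter is known to answer p53 and the SESN1 window held the exact match: an inner MDM2 start with matches at positions -94 to -85 and -46 to -37 from the start site (chr12:68808767-68809066, plus strand) and a SESN1 start with an exact match at -49 to -40 (chr6:109008939-109009238, minus strand). Capitals mark the matches.
MDM2: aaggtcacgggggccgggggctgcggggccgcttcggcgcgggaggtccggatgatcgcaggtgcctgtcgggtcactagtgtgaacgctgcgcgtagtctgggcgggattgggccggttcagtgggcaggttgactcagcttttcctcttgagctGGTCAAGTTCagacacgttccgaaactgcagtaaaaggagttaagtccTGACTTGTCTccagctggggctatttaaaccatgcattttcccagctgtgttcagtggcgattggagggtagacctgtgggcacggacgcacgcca
SESN1: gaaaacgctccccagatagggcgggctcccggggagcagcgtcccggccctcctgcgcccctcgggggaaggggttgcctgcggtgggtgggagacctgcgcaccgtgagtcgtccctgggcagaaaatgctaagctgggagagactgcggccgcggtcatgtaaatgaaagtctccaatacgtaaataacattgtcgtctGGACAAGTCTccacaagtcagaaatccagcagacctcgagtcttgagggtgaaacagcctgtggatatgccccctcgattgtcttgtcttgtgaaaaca

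Deposited intensities were on a linear scale and already on a common scale, with nearly the same trimmed mean on every array. Medians of the arrays ranged from 58.7 to 85.4. Fold changes are differences of log2(intensity + 6.1), tested with limma over the 9888 genes whose best probe set was at or above the median level, and a gene was called at a Benjamini-Hochberg adjusted p under 0.05. All 9 measured members passed this filter. Epithelial identity was clear, since 6 of 6 measured markers of 7 listed passed the filter, with summed intensities of 96554.8 to 122908.7 in side population arrays, 84586.9 to 142402.6 in non-side population arrays and 118939.7 to 129961.1 in unsorted arrays. Of the other cell types, 1 of 6 fibroblast markers (COL1A1), 1 of 5 measured blood markers (HBB) and 0 of 4 endothelial markers passed, and PTPRC, CDH5 and COL3A1 stayed below the filter. The 3′ to 5′ ratio of the actin control, which rises when RNA is degraded or copied in part, was 3.34 in side population replicate a and 0.987 to 1.28 on the other 9 arrays. Where leaving out that array turned the sign of a member, the value without it is also given. In bulk RNA, fewer cells with a transcript and less transcript per cell cannot be told apart.

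GADD45A was the member that stood apart from the rest. The side and non-side populations had 2.45 and 2.62 times the GADD45A signal of unsorted cells, and the fractions did not separate from each other. The sorted groups went through flow sorting and the unsorted cells did not. In every comparison with unsorted cells, effects of handling and of cell fraction therefore cannot be told apart. GADD45A encodes a small stress protein that binds PCNA, p21 and kinases of the stress cascade and takes part in growth arrest and repair. Its probe set read 7871.2, 11234.2, 11282.9 and 11192.1 in side population arrays a to d, 9873.1, 15841.5, 8986.0 and 10471.7 in non-side population arrays a to d, and 4005.5 and 4406.7 in unsorted arrays a and b. All 8 sorted arrays lay above both unsorted arrays, and the sorted groups overlapped. The mean was 10395 ± 1683 in side population cells (SD, n = 4), 11293 ± 3093 in non-side population cells (SD, n = 4) and 4206 ± 284 in unsorted cells (SD, n = 2). Side population against unsorted cells gave a log2 fold change of 1.29 ± 0.26 (SE, 95% interval 0.73 to 1.85), a fold of 2.45, with an adjusted p of 0.0234 in limma. Non-side population against unsorted cells gave 1.39 ± 0.26 (0.83 to 1.95), a fold of 2.62, with an adjusted p of 0.0116. The side population differed from the non-side population by -0.10 ± 0.21 on the log2 scale (-0.56 to 0.36, adjusted p = 0.9996), and by 0.03 without side population replicate a. GADD45A ranked 87th by p among all genes in the first of these comparisons and 86th in the second.

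The unsorted group had 2 arrays, and the GADD45A calls rested on both. For the side population against unsorted cells, the adjusted p became 0.383 without unsorted replicate a and 0.205 without replicate b, with log2 fold changes of 1.22 and 1.36. The call was also lost without side population replicate b (1.25, adjusted p = 0.0513), without replicate c (1.24, 0.0511) and with only the arrays labelled AGS (1.42, 0.0546), and it held without replicate a (1.42, 0.0255). For the non-side population against unsorted cells, among the 22 alternatives only the loss of an unsorted array ended the call, with log2 fold changes of 1.32 (adjusted p = 0.258) and 1.46 (0.127) without replicates a and b. Across all 22 alternatives the log2 fold change kept its sign, at 1.22 to 1.42 for the side population and 1.21 to 1.49 for the non-side population.

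**Figure D1:**
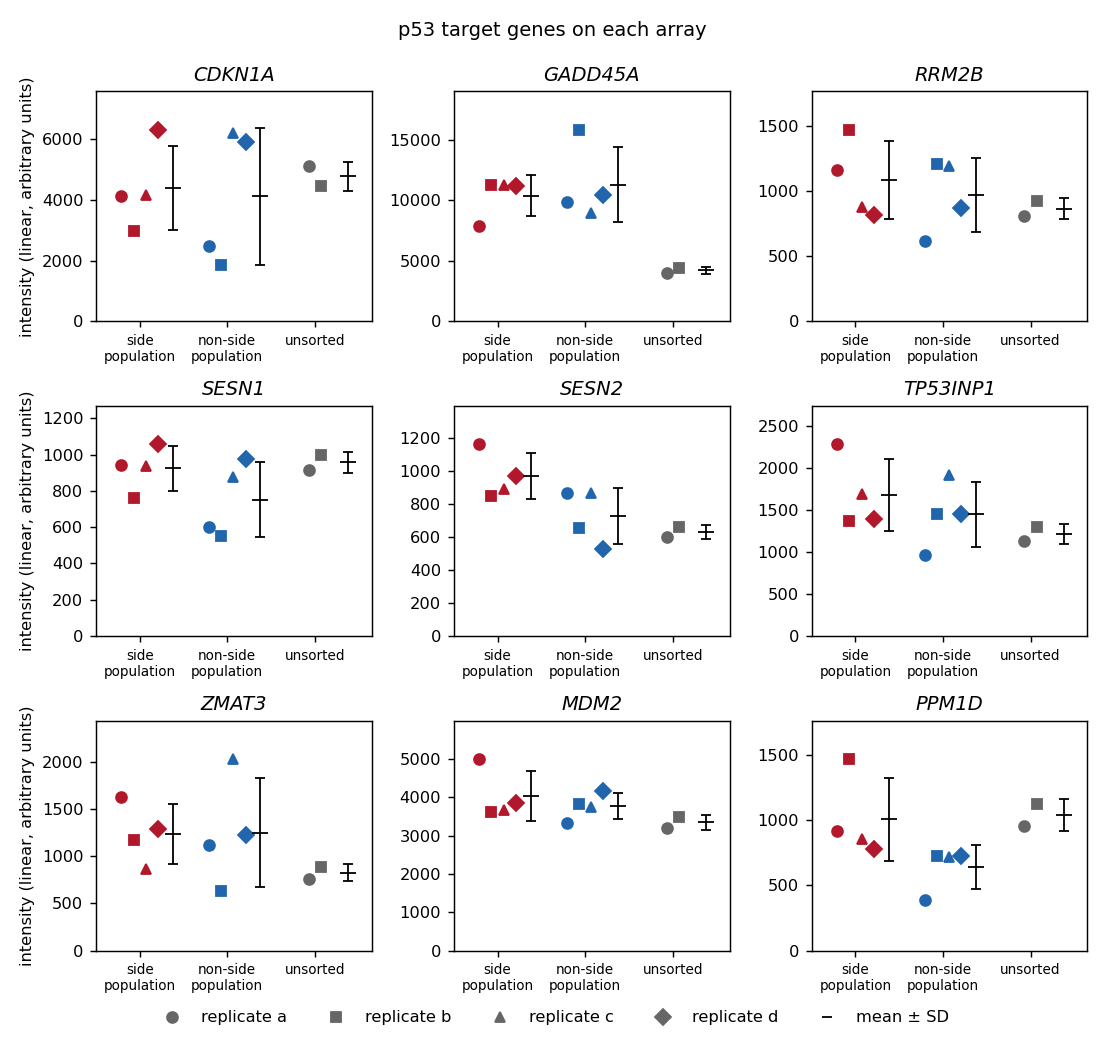
Intensity (linear axis from 0, arbitrary units) of the best probe set of each of the 9 measured p53 target genes, with a panel per gene and the groups side by side. Points are single arrays, their shape gives the replicate letter, and black bars are group means ± SD. The 8 sorted arrays of GADD45A lie between 7871.2 and 15841.5, above the unsorted arrays at 4005.5 and 4406.7, while the groups of CDKN1A, SESN1, RRM2B and ZMAT3 overlap in every pair.

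Of the 9 measured members, 0 were called between the side and non-side populations, where 0% of the 9888 genes tested were called and 430 had an unadjusted p under 0.05. Against unsorted cells, 1 member (GADD45A) was called higher in the side population, beside 1.81% of all genes, and 0 were called lower, beside 0.536%. In the non-side population, 1 member (GADD45A) was called higher against unsorted cells, beside 2.37% of all genes, and 0 were called lower, beside 1.15%. For the side against the non-side population, 8 members had positive and 1 had negative log2 fold changes with a median of 0.23, against 0.04 over all genes tested, of which 5664 were positive. The median of the members was 0.29 for the side population against unsorted cells (0.04 over all genes) and 0.17 for the non-side population against unsorted cells (-0.01 over all genes). Both comparisons against unsorted cells share the same 2 unsorted arrays.

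CDKN1A, the cell cycle arrest gene, did not follow GADD45A. Its probe set read 4146.9, 2965.5, 4162.9 and 6314.8 in side population arrays a to d, 2491.5, 1859.9, 6210.5 and 5916.5 in non-side population arrays a to d, and 5125.0 and 4444.8 in unsorted arrays a and b. Non-side population replicates a and b were the lowest arrays of all. Replicates c and d were above every array outside their group but side population replicate d, and the 3 groups overlapped. The log2 fold change was 0.23 ± 0.36 (SE, 95% interval -0.54 to 1.00) for the side against the non-side population, -0.17 ± 0.44 (-1.11 to 0.77) for the side population against unsorted cells and -0.40 ± 0.44 (-1.34 to 0.54) for the non-side population against unsorted cells. Each of these intervals runs from a lower to a higher level, so neither a change nor equal levels are shown. The within-group SD of CDKN1A was 0.65 on the log2 scale, at the 93.3rd percentile of all genes tested, so CDKN1A was among the most variable genes between arrays of 1 group. Its sign between side and non-side population turned to -0.09 without non-side population replicate b.

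The regulators of p53 among the members were MDM2 and PPM1D. On the best probe set of each gene, MDM2 was the steadiest member, with a within-group SD of 0.17 on the log2 scale, at the 3.53rd percentile of all genes. Other MDM2 probe sets varied more, such as 238733_at, at 124.4 to 653.7 in non-side population arrays. The best MDM2 probe set read 4999.5, 3615.8, 3662.2 and 3857.6 in side population arrays a to d, 3333.7, 3825.4, 3748.2 and 4174.2 in non-side population arrays a to d, and 3203.3 and 3480.0 in unsorted arrays a and b. The side population values all lay above the unsorted values and overlapped with the non-side population. Log2 fold changes were 0.09 ± 0.19 for the side against the non-side population (SE, 95% interval -0.31 to 0.49, and -0.02 without side population replicate a), 0.26 ± 0.23 for the side population against unsorted cells and 0.17 ± 0.23 for the non-side population against unsorted cells.

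The MDM2 probe sets disagreed with each other. Of its 10 probe sets, 2 were positive and 8 negative for the side against the non-side population, from -1.19 to 0.27 on the log2 scale. The signs went with brightness. The 2 positive ones, 229711_s_at and 225160_x_at, read 2027.7 to 4999.5, and the 8 negative ones read 893.8 or less on every array. Probe set 217373_x_at read 174.2, 429.2, 320.2 and 212.5 in side population arrays a to d, 778.8, 893.8, 319.7 and 558.2 in non-side population arrays a to d, and 383.1 and 309.2 in unsorted arrays a and b. Non-side population replicates a, b and d were above every side population array, and replicate c was within their range, for a log2 fold change of -1.13 ± 0.35 (SE, unadjusted p = 0.0064, adjusted p = 0.984 over all 41097 probe sets). Against unsorted cells, 5 of the 10 were higher in the side population (-0.79 to 1.38) and 8 of the 10 in the non-side population (-0.14 to 1.69). The highest of these, 238733_at, had log2 fold changes of 1.38 ± 0.52 for the side population and 1.69 ± 0.52 for the non-side population. The bright probe set 225160_x_at had 0.74 ± 0.22 (unadjusted p = 0.0048, adjusted p = 0.1415 in limma) and 0.47 ± 0.22, more than the best probe set. None of the 10 was called. Probe set 237891_at lay below the array median on all 10 arrays, 205385_at, which gave the -1.19, on 5 and 211832_s_at on 2.

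PPM1D was the 1 member whose side and non-side population arrays did not overlap. Its best probe set read 918.2, 1472.8, 858.6 and 780.1 in side population arrays a to d, 388.3, 726.8, 722.6 and 725.5 in non-side population arrays a to d, and 953.7 and 1128.8 in unsorted arrays a and b. The lowest side population array (780.1) was above the highest non-side population array (726.8). Over all genes tested, 1.01% were higher in the side population without overlap and 0.576% lower, and 1 of 9 members was higher and 0 lower. The log2 fold change of PPM1D was 0.65 ± 0.27 (SE, 95% interval 0.08 to 1.22), with an unadjusted p of 0.0278 and an adjusted p of 0.997 in limma, so it was not called. Against unsorted cells it was -0.09 ± 0.32 in the side population and -0.74 ± 0.32 in the non-side population (adjusted p = 0.228). Without non-side population replicate a, whose value was the lowest, the difference between side and non-side population was 0.43 ± 0.25. The second PPM1D probe set, below the array median on 6 arrays, gave 0.30 ± 0.37 for that comparison and opposite signs to the first against unsorted cells (0.76 and 0.46).

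The sestrins SESN1 and SESN2 restrain growth signalling through mTORC1 and limit oxidative damage. SESN2 read 1161.3, 849.9, 892.4 and 972.2 in side population arrays a to d, 868.6, 652.5, 865.0 and 524.9 in non-side population arrays a to d, and 599.7 and 662.1 in unsorted arrays a and b. Every side population array was above both unsorted arrays, and side population replicate b lay among the higher non-side population arrays. The log2 fold change of SESN2 was 0.61 ± 0.27 for the side population against unsorted cells (SE, unadjusted p = 0.0415, adjusted p = 0.266), 0.43 ± 0.22 for the side against the non-side population (unadjusted p = 0.0713, adjusted p = 0.997) and 0.18 ± 0.27 for the non-side population against unsorted cells. The second SESN2 probe set had the same signs, at 0.67 ± 0.31, 0.21 ± 0.25 and 0.46 ± 0.31. SESN1, whose motif window is printed above, read 942.6, 757.8, 939.0 and 1056.3 in side population arrays a to d, 600.9, 551.5, 876.2 and 974.8 in non-side population arrays a to d, and 915.0 and 999.1 in unsorted arrays a and b. Non-side population replicates a and b were the lowest of the 10, and the groups overlapped in each comparison, with log2 fold changes of 0.33 ± 0.23, -0.06 ± 0.28 and -0.39 ± 0.28 for the side against the non-side population, the side population against unsorted cells and the non-side population against unsorted cells.

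**Figure D2:**
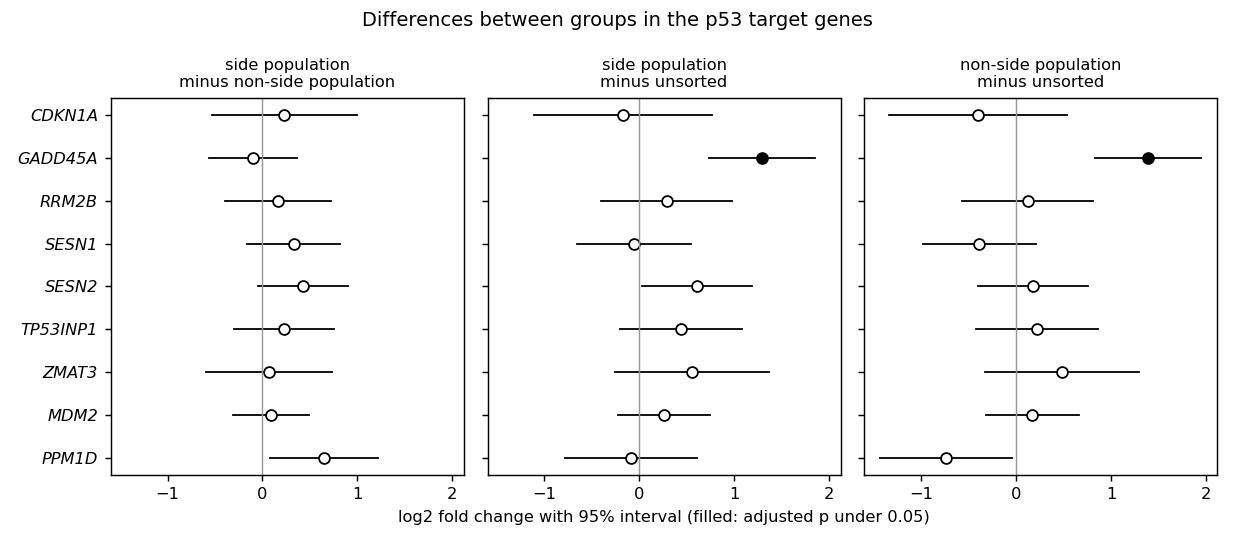
Log2 fold change of each of the 9 measured p53 target genes in the 3 comparisons, with lines for the 95% intervals from limma, where filled points were called at an adjusted p under 0.05. GADD45A is the filled point in both comparisons against unsorted cells, at 1.29 and 1.39, and no member is filled for the side against the non-side population.

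TP53INP1, RRM2B and ZMAT3 carry the arms of stress signalling, nucleotide supply and RNA control. TP53INP1 encodes a nuclear stress protein that helps p53 become active and takes part in autophagy. Its best probe set read 2277.1, 1360.6, 1686.4 and 1386.5 in side population arrays a to d, 965.2, 1446.6, 1918.2 and 1444.0 in non-side population arrays a to d, and 1127.2 and 1291.6 in unsorted arrays a and b. The side population lay above unsorted cells without overlap, by 0.44 ± 0.30 on the log2 scale (SE, adjusted p = 0.487), and overlapped with the non-side population (0.23 ± 0.25), while the non-side population differed from unsorted cells by 0.22 ± 0.30. The remaining 2 TP53INP1 probe sets were below the array median on all 10 arrays.

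RRM2B encodes the p53-induced small subunit of ribonucleotide reductase, which makes deoxynucleotides for repair outside S phase. It read 1164.7, 1471.2, 881.6 and 812.8 in side population arrays a to d, 617.1, 1208.0, 1195.6 and 868.6 in non-side population arrays a to d, and 807.7 and 920.8 in unsorted arrays a and b. Side population replicate b was the highest array and non-side population replicate a the lowest, the groups overlapped in every pair, and the log2 fold changes were 0.17 ± 0.26, 0.29 ± 0.32 and 0.12 ± 0.32 for the side against the non-side population, the side population against unsorted cells and the non-side population against unsorted cells.

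ZMAT3 encodes a zinc finger protein that binds RNA and alters splicing. Its best probe set read 1631.1, 1177.8, 861.2 and 1291.9 in side population arrays a to d, 1118.5, 628.8, 2032.8 and 1226.0 in non-side population arrays a to d, and 760.0 and 889.0 in unsorted arrays a and b. The non-side population held both the lowest and the highest array, and the log2 fold change between side and non-side population was 0.07 ± 0.31 (SE), or -0.07 without side population replicate a. A different ZMAT3 probe set, 1555609_a_at, went the other way, with 105.3, 273.0, 164.6 and 293.5 in side population arrays a to d, 638.8, 217.9, 596.1 and 396.4 in non-side population arrays a to d, and 329.2 and 364.0 in unsorted arrays a and b. Its log2 fold change was -1.12 ± 0.38 (SE, unadjusted p = 0.0121, adjusted p = 0.984), and the 4 other ZMAT3 probe sets were positive, from 0.07 to 0.64. Against unsorted cells, the best probe set gave 0.55 ± 0.38 in the side population and 0.48 ± 0.38 in the non-side population. Probe set 227221_at was higher by 0.94 ± 0.28 in the side population, the highest of the 5 there (adjusted p = 0.145), and by 0.57 ± 0.28 in the non-side population. In each comparison 4 of the 5 were positive and 1 was negative. The negative ones were 1555609_a_at in the side population (-0.82 ± 0.47) and 228315_at in the non-side population (-0.54 ± 0.42).

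Groups that did not overlap were more common against unsorted cells, where only 2 arrays have to lie on 1 side. In the side population, 4 members (GADD45A, MDM2, SESN2 and TP53INP1) lay above unsorted cells without overlap, beside 21.3% of all genes, and 0 lay below, beside 15.4%. In the non-side population, 1 member (GADD45A) lay above without overlap, beside 15.6% of all genes, and 1 (PPM1D) lay below, beside 16.3%. Over all 26 probe sets of the members, 14 were positive and 12 negative for the side against the non-side population with 0 called, beside 0% of all 41097 probe sets. In the same fit 0 of 26 were called for the side population against unsorted cells, beside 0.63%, and 1 of 26, that of GADD45A, for the non-side population against unsorted cells, beside 1.27%. The adjusted p of GADD45A in that wider fit was 0.0513 for the side population and 0.0282 for the non-side population, adjusted over 41097 probe sets in place of 9888 genes.

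**Figure D3:**
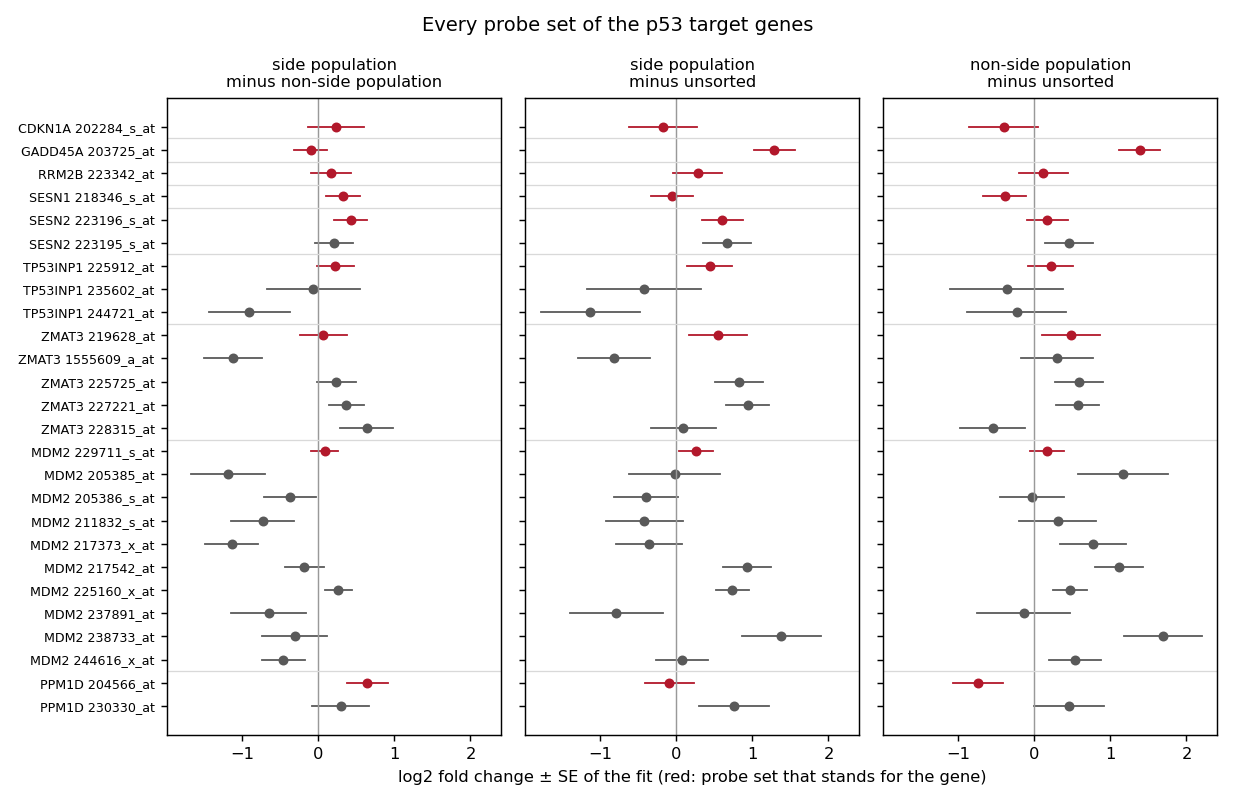
Log2 fold change of all 26 probe sets of the p53 target genes, side population against non-side population and each against unsorted cells, with a row per probe set. Lines are ± SE of the fit, and red marks the probe set that stands for its gene. MDM2 spreads from -1.19 to 0.27 and ZMAT3 from -1.12 to 0.64 for the side against the non-side population. The -1.19 belongs to a dim probe set, below the array median on 5 arrays.

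Array by array, the members varied in different directions. Non-side population replicate a was the lowest array for 3 members and among the lowest 3 for 6 of the 9, with a median of -0.49 on the log2 scale after each gene's mean was taken off. Non-side population replicate b was the lowest for another 3, and unsorted replicate a was among the lowest 3 for 6. Side population replicate a had the highest median, at 0.27, and side population replicate d was among the highest 3 for 5 members. Between arrays of the same letter, 8 of 9 members were higher in side population replicate a, and PPM1D, SESN1 and SESN2 were higher in the side population for all 4 letters. For letter c, CDKN1A was lower in the side population by 0.58 and ZMAT3 by 1.23 on the log2 scale, while for letter b they were higher by 0.67 and 0.90. The titles give side and non-side population arrays of 1 letter the same replicate group name but do not say what such a group shares, so these are arrays set side by side. The counts and medians in this paragraph were not made over all genes tested, so they do not set the members apart from other genes. Side population replicate a was also the array with the actin ratio of 3.34.

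The genes whose profile over the 10 arrays was most like that of CDKN1A were not members. By the root mean square difference of log2 values after each gene's mean was taken off, the 3 nearest of 9888 genes were MVP (0.13), MAN1B1 (0.15) and ALDH16A1 (0.16). MVP averaged 1777 ± 657 in side population cells (SD, n = 4), 1546 ± 917 in non-side population cells (SD, n = 4) and 2090 ± 199 in unsorted cells (SD, n = 2). CDKN1A had the same order, which follows from choosing MVP by likeness over these same arrays. The members are a small part of the genes ranked, so non-members in the nearest places say little about the members. The nearest member was SESN1, at 0.32 and rank 295, and the farthest was GADD45A, at 0.97 and rank 9330.

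The pathway around the members was read from 3 further gene lists. Of all 9888 genes tested, 0% were called between the side and non-side populations, where the median log2 fold change was 0.04. Against unsorted cells, 1.81% were called higher and 0.536% lower in the side population (median 0.04). In the non-side population 2.37% were called higher and 1.15% lower (median -0.01). Of the 23 other p53 targets listed, 21 were measured and 18 tested, and 0 were called between the side and non-side populations (11 positive, 7 negative, median log2 fold change 0.08) or between the side population and unsorted cells (11 positive, 7 negative, median 0.10). SUSD6, a p53 target that slows cell division, was called between the non-side population and unsorted cells (1 of 18 higher, 0 lower, median 0.11). It read 1348.6, 1478.3, 1079.7 and 1346.3 in side population arrays a to d, 1015.7, 1201.1, 1784.6 and 1169.2 in non-side population arrays a to d, and 684.5 and 543.5 in unsorted arrays a and b. Every sorted array was above both unsorted arrays, with log2 fold changes of 1.09 ± 0.27 for the side population (SE, adjusted p = 0.0501) and 1.04 ± 0.27 for the non-side population (adjusted p = 0.0483), and both sat at the threshold, passing it in 5 and 6 of the 22 alternatives. PLK3, a damage-responsive kinase, had log2 fold changes of 1.43 ± 0.46 and 1.62 ± 0.46 in the same comparisons and was not called (adjusted p = 0.115 and 0.0676). Its best probe set read 74 and 117.2 in unsorted arrays a and b, below the level of the filter, which PLK3 passed through its sorted arrays. Between the side and non-side populations the smallest p-values on this list belonged to STEAP3, a metalloreductase, and PLK2, a stress-induced kinase, at 0.45 ± 0.24 and 0.38 ± 0.21 (adjusted p = 0.997 for both), and a second STEAP3 probe set had the opposite sign (-0.20 ± 0.40).

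Of 17 genes for p53 and its regulators, 15 were measured and 14 tested. For the side against the non-side population 0 of 14 were called (7 positive, 7 negative, median 0.02), for the side population against unsorted cells 1 was called higher (10 positive, 4 negative, median 0.21), and for the non-side population against unsorted cells 1 was called higher and 1 lower (7 positive, 7 negative, median 0.12). The shares of all genes called are those given with the list of other p53 targets. The gene called higher in both was MDM4, the partner of MDM2 that holds p53 inactive. MDM4 is also among the relatives described below, so its calls are counted on both lists.

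MDM4 had a larger log2 fold change against unsorted cells than any of the 9 members. Its best probe set read 3429.2, 2701.2, 2167.2 and 1526.5 in side population arrays a to d, 2994.2, 2509.2, 3065.5 and 3402.7 in non-side population arrays a to d, and 555.7 and 762.8 in unsorted arrays a and b. All sorted arrays were above both unsorted arrays, with log2 fold changes of 1.84 ± 0.30 for the side population (SE, adjusted p = 0.0083) and 2.18 ± 0.30 for the non-side population (adjusted p = 0.00219). All 6 MDM4 probe sets were positive in both comparisons, from 0.01 to 1.84 and from 0.35 to 2.18, and their mean gave 0.79 (adjusted p = 0.198) and 1.12 (adjusted p = 0.0575). The side population call was lost without unsorted replicate a (1.62, adjusted p = 0.264) and without replicate b (2.07, 0.0684), and the non-side population call without replicate a (1.96, 0.0927).

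USP7, a deubiquitinase that stabilises both MDM2 and p53, was the gene called lower. It read 3749.8, 3304.6, 2683.6 and 2478.8 in side population arrays a to d, 2138.2, 2133.9, 2303.7 and 2270.9 in non-side population arrays a to d, and 4830.7 and 4086.7 in unsorted arrays a and b. The 3 groups did not overlap in any pair, with log2 fold changes of 0.45 ± 0.19 for the side against the non-side population (SE, adjusted p = 0.997), -0.56 ± 0.24 for the side population against unsorted cells (adjusted p = 0.237) and -1.01 ± 0.24 for the non-side population against unsorted cells (adjusted p = 0.0321). Its 4 probe sets disagreed in sign in each comparison, and their mean gave -0.22 (adjusted p = 0.643) in the last. That call was also lost when either unsorted array was left out (-0.89, adjusted p = 0.477, and -1.13, 0.208) or when non-side replicate a (-0.99, 0.0678) or d (-1.02, 0.0609) was, and in a fit to the 2 compared groups alone (-1.01, 0.0577). CHEK2, the checkpoint kinase that phosphorylates p53, was lower in the side population by unadjusted values only, at -0.48 ± 0.21 against the non-side population (adjusted p = 0.997) and -0.81 ± 0.25 against unsorted cells (adjusted p = 0.105).

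**Figure D4:**
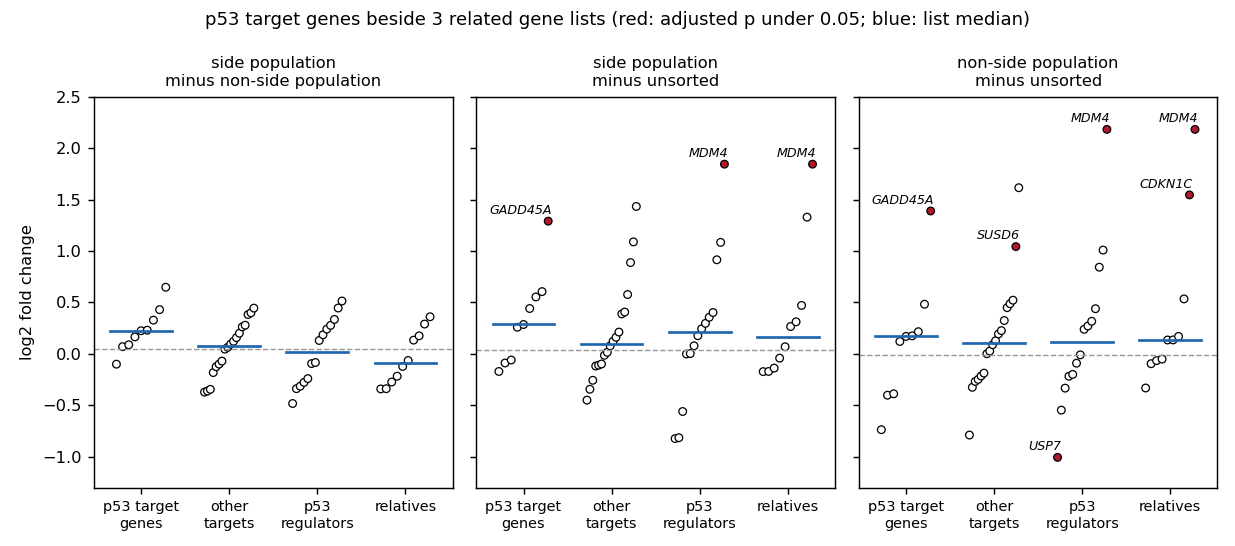
Log2 fold change of every tested gene in the p53 target genes described here and in 3 further lists, with a panel per comparison. Red points were called, blue bars are list medians and the dashed line is the median of all genes tested. MDM4, at 1.84 and 2.18 against unsorted cells, is above GADD45A at 1.29 and 1.39. MDM4 is on the lists of regulators and of relatives and is drawn in both.

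Relatives of the members by gene family or function form the last list, which shares MDM4 with the list of regulators. The shares of all genes called are again those given with the list of other p53 targets. Of 12 listed, 12 were measured and 10 tested: 0 were called for the side against the non-side population (4 positive, 6 negative, median -0.09), 1 higher for the side population against unsorted cells (MDM4, 6 positive, 4 negative, median 0.17) and 2 higher for the non-side population against unsorted cells (MDM4 and CDKN1C, 6 positive, 4 negative, median 0.14). CDKN1C, the p57 relative of p21, had log2 fold changes of 1.33 ± 0.39 in the side population (SE, adjusted p = 0.0909) and 1.55 ± 0.39 in the non-side population (adjusted p = 0.0452) on its best probe set. That probe set read 94.2 and 104 in unsorted arrays a and b, below the level of the filter. CDKN1C passed the filter through its sorted arrays, so being tested was not separate from being higher there. The other CDKN1C probe sets gave -0.13 to 0.78 for the non-side population, and the call was lost without any of 7 of the 10 arrays left out in turn. RRM2, the S-phase counterpart of RRM2B, had -0.34 ± 0.25 for the side against the non-side population on its best probe set and 0.06 ± 0.24 on the other. GADD45G and SESN3, family members of GADD45A and of the sestrins, were below the filter.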

How the data were processed

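Total RNA from 4 side population, 4 non-side population and 2 unsorted samples was measured on single-channel arrays. The deposited values were intensities for 54675 probe sets, from 0.1 to 74993.2, and the submitters' processing notes name GCOS 1.4 without settings. Its algorithm and settings were not given in the sources used here. Leaving out 2% at each end, the mean lay at 500.065 to 500.095 on every array, so no further scaling was applied. The platform annotation gave 1 symbol for 41097 probe sets, several for 1801 and none for 11777, and 41043 of the first matched RefSeq by gene identifier, with all 26 of the members.

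Before log2, 6.1 was added to each value (the 10th percentile over all arrays), which understates the change of dim genes. Each gene was read from its best probe set, that with the highest mean on the log2 scale, and the 9888 of 19775 genes at or above the median (intensity 149) were tested. Groups were compared in limma (version 3.58.1, R 4.3.3) by lmFit, contrasts.fit and trended eBayes in 1 fit over all 10 arrays without covariates, and p-values were adjusted by Benjamini-Hochberg over all genes tested. A further fit held all 41097 probe sets without a filter. The number of arrays limits the precision, above all for unsorted cells. No pair of arrays held identical values.

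Members and lists were chosen with earlier results of these data known. All members were described. From the other lists, the text names genes called in any comparison and those of smallest p, together with the 3 genes nearest to CDKN1A in profile. The alternatives were other constants, raising low values to the array median, other filters, quantile normalization, single probe sets or their mean in place of the best one, an untrended eBayes, fits to the compared groups or to AGS-labelled arrays alone, each array left out in turn, and a block for the replicate letter.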

Additional observations from a re-analysis of the deposited data

Results flagged for a closer look

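In 52 group and probe set combinations of 4 arrays, the gap between the most extreme array and its nearest neighbour was set against the range of the group and compared with Dixon's 95% critical value. Chance alone passes it in about 1 of 20 groups, or 2.6 of 52, and 2 passed. GADD45A in side population replicate a (7871.2, below 11192.1 to 11282.9 in the other 3 arrays) had a ratio of 0.978. This array also had the raised 3′ to 5′ ratios, 3.34 for actin and 1.87 for GAPDH, and their part in the low value was not tested. Without it the log2 fold change of GADD45A was 1.42 for the side population against unsorted cells and 0.03 for the side against the non-side population. PPM1D in non-side population replicate a (388.3, below 722.6 to 726.8 in the other 3 arrays) had a ratio of 0.991. Without it the log2 fold change of PPM1D was 0.43 for the side against the non-side population and -0.51 for the non-side population against unsorted cells.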

How the results depend on the processing

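The number of members called was 0 for the side against the non-side population under all 22 alternatives. It was 1 in both comparisons against unsorted cells and fell to 0 for the side population with only the arrays labelled AGS. With each array left out in turn it ranged from 0 to 1 in both. The number of all genes called fell to 9 and 16 for the side population and to 12 and 37 for the non-side population without unsorted replicates a and b, against 232 and 348 with all arrays. With the replicate letter as a replicate block, 0, 1 and 1 members and 0, 734 and 967 genes were called in the 3 comparisons. Same-letter side and non-side population arrays correlated at 0.212, 0.498, -0.117 and 0.364 for letters a to d after group means were taken off, and replicates c and d of the side population correlated best with another letter, so the data did not pair all 4 letters. Side population replicate c correlated at 0.255 with non-side population d, and replicate d at 0.429 with non-side population c. Side population replicate b correlated at -0.458 with non-side population d, and replicate d at -0.476 with non-side population b. The titles name the same replicate group for side and non-side arrays of 1 letter, without saying what it shares, and name other groups for the unsorted arrays, which the block joined to letters a and b. Under the block, the non-side population calls against unsorted cells of USP7 (-0.918, adjusted p = 0.0507) and SUSD6 (1.00, 0.0521) were also lost. Of the members' log2 fold changes, 181, 179 and 190 values kept their sign and call and 12, 9 and 1 changed sign in the 3 comparisons, and none of those that changed sign was called. For the side against the non-side population, ZMAT3 became -0.0128 with quantile normalization, MDM2 -0.466 with the mean over its probe sets, and GADD45A 0.0289, RRM2B -0.147 and ZMAT3 -0.125 with only AGS arrays. With single arrays left out, CDKN1A ranged from -0.088 to 0.491, GADD45A from -0.197 to 0.0751, MDM2 from -0.0185 to 0.139, RRM2B from -0.0347 to 0.289 and ZMAT3 from -0.218 to 0.343. For the side population against unsorted cells, PPM1D became 0.336 and USP7 0.101 with the mean over probe sets, and CDKN1A 0.103, SESN1 0.0585 and RRM2B -0.0267 with only AGS arrays. With single arrays left out, CDKN1A ranged from -0.362 to 0.00131, PPM1D from -0.285 to 0.0327 and SESN1 from -0.126 to 0.0322. For the non-side population against unsorted cells, RRM2B ranged from -4.79e-05 to 0.321. The causes were not tested. PPM1D, SESN1, SESN2 and RRM2B had no value with the filter at the 75th percentile, and TP53INP1 none with the mean over probe sets, where they were below the filter. No detection calls were used here, so signal over background is unknown, above all for the MDM2, PPM1D and TP53INP1 probe sets below the array median.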
